A study of Mus musculus with 19 samples.

Results

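The comparison described here asks what the loss of the miR-290 microRNA cluster changed in mouse cells that already lacked the miR-302 cluster. It sets double KO iPSC (knockout of both clusters) against miR-302 KO iPSC (knockout of miR-302 alone), where iPSC are induced pluripotent stem cells. Its members are 8 of the 19 libraries of the series, chosen by their genotype label: 4 double KO libraries and 4 miR-302 KO libraries. Each group holds 2 colonies with 2 libraries per colony. All of these cells were reprogrammed from mouse embryonic fibroblasts (MEFs) with Oct4, Sox2 and Klf4, were grown with LIF and serum (FBS), and had passed through more than 18 passages since reprogramming. The colonies were derived, cultured and collected independently, so the colony is the replicate and its 2 libraries were averaged. The labels give neither the sex nor the strain of the cells, nor whether a colony is 1 clone. Expression was measured by QuantSeq, which counts the 3′ ends of polyadenylated transcripts, from 200 ng of total RNA per library.

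MicroRNAs are short RNAs that guide Argonaute proteins to messenger RNAs, mostly to sites in the 3′ untranslated region (3′ UTR), and lower the stability or translation of those messages. Target choice rests largely on the seed, the bases at positions 2 to 8 of the microRNA, which pair with the complementary site in the message. The miR-290 cluster is the main microRNA source of mouse embryonic stem cells, and the miR-302 cluster is most active in the later, primed state of pluripotency. Both are known as embryonic stem cell cycle regulating microRNAs because they repress inhibitors of the G1-S transition, and both are known to promote reprogramming.

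The clusters share a seed, and the mature sequences of some members are shown so that it can be read. They are printed 5′ to 3′ from RefSeq (GRCm38.p6), with the seed in capitals.
miR-290a-3p: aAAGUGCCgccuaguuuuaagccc
miR-291a-3p: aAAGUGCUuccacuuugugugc
miR-294-3p: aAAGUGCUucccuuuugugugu
miR-295-3p: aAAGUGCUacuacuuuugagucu
miR-302b-3p: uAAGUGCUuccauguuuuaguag
miR-302c-3p: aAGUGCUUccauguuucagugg
miR-302d-3p: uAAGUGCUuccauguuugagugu
miR-367-3p: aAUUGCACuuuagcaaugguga
The seed AAGUGCU is identical in miR-291a-3p, miR-294-3p and miR-295-3p of the miR-290 cluster and in miR-302b-3p and miR-302d-3p of the miR-302 cluster. The seed of miR-290a-3p differs from it at its last base, and that of miR-302c-3p shares 6 bases with it, AGUGCU, at a shift of 1 position. The seed of miR-367-3p is unrelated. Not all members are printed. In the miR-290 cluster miR-291b-3p has the seed AAGUGCA, and miR-293-3p has GUGCCGC, which is not the shared seed. The miR-290 cluster spans 2216 bp at chr7:3218626-3220841 and the miR-302 cluster spans 580 bp at chr3:127545228-127545807, both on the plus strand of GRCm38. GENCODE M21 places the miR-302 hairpins between exons of Larp7, which runs on the opposite strand, and the miR-290 hairpins after the first within the span of the last exon of an Nlrp12 model, also on the opposite strand. Mature microRNAs are not polyadenylated messages and were not measured, so the deletions themselves could not be checked in these data. Larp7 was counted at 311 ± 69.7 CPM in double KO and 268 ± 15.3 CPM in miR-302 KO cells (adjusted p = 0.479).

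Levels are given as CPM, counts per 1000000 reads, with library totals on the scale of the deposited values, and 4 values in a row run in the order colony 1 library 1, colony 1 library 2, colony 2 library 1, colony 2 library 2. A mean ± SD of CPM is over the 2 colony means (n = 2 colonies). A log2 difference is double KO minus miR-302 KO on the log2 scale of the deposited values, given ± its standard error, and a gene was called at an adjusted p under 0.05. Standard errors and adjusted p are from a fit of 13 samples in all 6 groups of the series. The other groups are wild-type (WT) iPSC, miR-290 KO iPSC, and embryonic stem cells with knockout of miR-290 or of miR-302.

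Between 14344650 and 17767788 reads were recovered per double KO library and between 11063471 and 20278812 per miR-302 KO library. With 0 reads in all 4 libraries of a group, a level of up to 0.0469 CPM in double KO and 0.0437 CPM in miR-302 KO cells remained possible, the level of 3 reads over the group, which covers counting error only. A fold given as "at least" is the mean CPM of the other group over that level. Colony 1 library 2 of the miR-302 KO cells stood apart, with 17.1% of its reads in its 20 most abundant genes against 11.3% to 11.7% in the other libraries of its group and 8.6% to 9.1% in double KO libraries. The 2 libraries of a colony also disagreed in single genes. Ddx3y, a Y-linked gene, was counted at 0, 12.9, 12.1 and 0.294 CPM in miR-302 KO libraries and at 0, 0.285, 0.172 and 0.2405 CPM in double KO libraries. Xist, the RNA that coats the inactive X chromosome, was counted at 608, 643, 660.4 and 638 CPM in double KO and 0, 0, 0 and 9.31 CPM in miR-302 KO libraries. H19, an imprinted RNA, also differed by more than 7-fold between the libraries of each miR-302 KO colony. High Ddx3y was thus seen in 1 library of each miR-302 KO colony and in no double KO library, and high Xist in every double KO library. Whether each miR-302 KO library belongs to the colony its label names was not tested, and the colony means and SDs rest on those labels; with each library as 1 sample 6902 genes were called. Xist overlaps its antisense partner Tsix, and the use of strand in counting is not given in the sources used here. What part the X-chromosome state or the origin of the cells plays in the other differences was not tested. Leaving out all genes of chromosomes X and Y gave 5761 calls among 12327 genes. That removes those genes alone, so it cannot show whether X-chromosome state affects the others.

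Of 12778 genes, 5987 were called, which is 46.9% of all genes tested. Of these, 3642 were higher in double KO cells (28.5% of all genes) and 2345 lower (18.4%). The 4 libraries of one group all lay above or all below the 4 of the other in 5867 genes (45.9%). The change was often large: 218 genes rose and 314 fell by at least 5 on the log2 scale, and 25 genes above 10 CPM in miR-302 KO cells had no read in any double KO library, while 5 genes were the reverse. The median size of the difference over all genes was 0.94, against a median size of the difference between the 2 colonies of 0.31 in double KO and 0.51 in miR-302 KO cells. The median signed difference was 0.24. Under median-of-ratios scaling it was 0.03 and the calls split into 3035 higher and 2930 lower genes, so the excess of higher genes depended on the scaling. Without colony 1 library 2 of the miR-302 KO cells, 3380 genes were called higher and 2759 lower. Of the 5987 calls, 5239 (87.5%) held in that fit. With so many genes called, a gene list has to be read against these shares. The gene lists below were chosen with earlier results of these data known.

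Most transcription factors that hold the naive pluripotent state fell far in double KO cells. Of 17 core and naive factors, 13 fell and none rose, with a median log2 difference of -5.31, against 18.4% of all genes falling. Without the miR-302 KO library that stood apart, 14 fell and 1 rose. Esrrb, an orphan nuclear receptor of the naive network, was counted at 0.253, 0.926, 0.631 and 0.361 CPM in double KO libraries and 345, 278, 320.3 and 284 CPM in miR-302 KO libraries. All double KO libraries lay below 1 CPM and all miR-302 KO libraries above 270 CPM, a log2 difference of -8.91 ± 0.24 (adjusted p = 2.35e-10). Nanog, the homeodomain factor that stabilises self-renewal, had 2.53, 2.85, 2.35 and 1.804 CPM against 871, 151, 580.0 and 964 CPM. Its groups did not overlap, although the library that stood apart was the lowest of its group by a wide margin (-7.71 ± 0.29, adjusted p = 1.12e-09). Zfp42, also known as Rex1 and a marker of the naive state, had 0.442, 0.713, 0.516 and 0.2405 CPM against 189, 189.9, 158 and 148 CPM (-8.16 ± 0.30, adjusted p = 9.54e-10). Nr5a2, which can replace Oct4 in reprogramming, fell from 59.7 ± 5.03 to 0.188 ± 0.0577 CPM.

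The genes of the reprogramming factors themselves had smaller log2 differences than Esrrb, Nanog and Zfp42, and these were not compared by a test. Pou5f1, which encodes Oct4, was counted at 29.99, 24.02, 23.9 and 21.3 CPM in double KO libraries and 625, 2445, 1054 and 572 CPM in miR-302 KO libraries. Double KO values were even and low, and miR-302 KO values were high and spread by several fold, with the highest in the library that stood apart (-5.31 ± 0.36, adjusted p = 2.41e-07). Sox2 had 36.4, 19.95, 48.5 and 39.3 CPM against 333, 306, 352 and 455 CPM (-3.37 ± 0.25, adjusted p = 5.56e-07). Klf4 had 7.01, 5.06, 17.7 and 11.9 CPM against 279, 291, 206 and 166 CPM (-4.60 ± 0.38, adjusted p = 1.34e-06). The groups did not overlap in any of these. The counts do not separate transcripts of the introduced factors from those of the cells' own genes unless their 3′ ends differ, and which was counted was not tested. Klf2 and Klf5, which share targets with Klf4, fell by 5.33 and 4.36 on the log2 scale, and Sall4, a zinc finger partner of Oct4, fell by 3.24.

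The double KO colonies lay well apart from each other in Tfcp2l1 and Tbx3. Tfcp2l1, a LIF-responsive naive factor, had 0.821, 0.926, 7.17 and 9.32 CPM in double KO and 452, 223, 416 and 325 CPM in miR-302 KO libraries. Tbx3, a T-box factor downstream of LIF, had 0.442, 1.28, 7.399 and 7.52 CPM against 265, 200.0, 313 and 322 CPM. Colony 2 thus kept several times more of both than colony 1, while all double KO libraries stayed far below the miR-302 KO libraries, with log2 differences of -6.88 ± 0.66 (adjusted p = 5.2e-06) and -6.68 ± 0.66 (adjusted p = 6.95e-06). The 4 factors that did not pass the test were Tfap2c (-2.11, adjusted p = 0.0643), Tcf7l1 (0.41, adjusted p = 0.0948), Tcf3 (0.57, adjusted p = 0.0667) and Nr0b1 (1.08, adjusted p = 0.0802). Tcf7l1 is the repressor that restrains the naive network downstream of Wnt, and Nr0b1 had 45.96, 68.2, 50.99 and 71.5 CPM against 70.4, 5.58, 15.3 and 91.4 CPM, so that the groups overlapped. In bulk RNA a smaller share of expressing cells and less RNA per cell cannot be told apart, and this applies to every level given here.

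**Figure D1:**
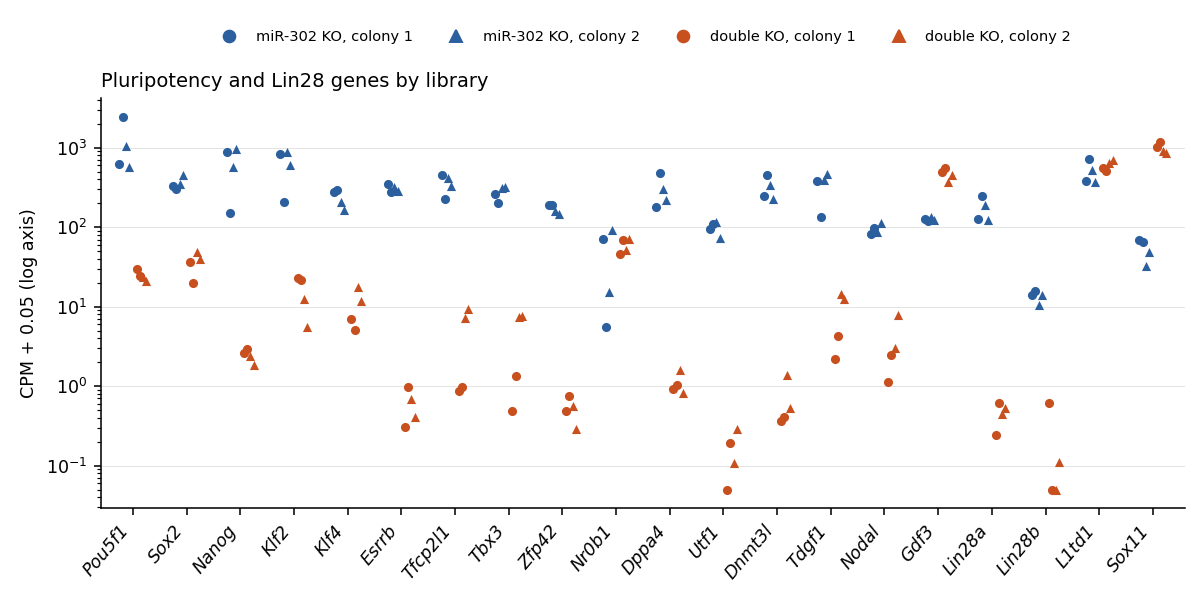
CPM + 0.05 on a log axis for 20 pluripotency-related genes in each of the 8 libraries (blue, miR-302 KO; orange, double KO; circles, colony 1; triangles, colony 2). Esrrb and Zfp42 lay below 1 CPM in all double KO libraries, Nr0b1 overlapped, and Gdf3 and Sox11 were higher in double KO cells.

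Genes that act beneath these factors followed the same course with 2 exceptions. Of 18 pluripotency-associated effector genes, 16 fell and 2 rose, with a median of -6.04, against 18.4% of all genes falling and 28.5% rising. The counts were the same without the library that stood apart. Dppa2, a chromatin factor of early embryos, had 0.0631, 0, 0.115 and 0.301 CPM in double KO libraries and 97.4, 148, 107 and 129.8 CPM in miR-302 KO libraries (-8.96 ± 0.29, adjusted p = 4.74e-10). Dppa4, its partner, had 0.884, 0.998, 1.55 and 0.782 CPM against 178, 479, 299.6 and 223 CPM (-7.88 ± 0.24, adjusted p = 3.14e-10). Utf1, a chromatin factor under Oct4 and Sox2, had 0, 0.143, 0.0574 and 0.2405 CPM against 95.7, 109.9, 117 and 72.03 CPM (-8.69 ± 0.30, adjusted p = 6.67e-10). In each of the 3 genes all double KO values were under 2 CPM and all miR-302 KO values above 70 CPM. Whole reads were not recovered for Dppa5a, which has many processed copies in the genome, nor for Lefty1 and Lefty2, which resemble each other. Their deposited log2 values differed by -9.58 ± 0.33, -5.26 ± 0.44 and -8.74 ± 0.27.

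Ligands of the Nodal branch were split. Nodal, which signals through activin receptors, had 1.07, 2.42, 2.98 and 7.696 CPM against 83.2, 98.3, 86.8 and 113 CPM (-5.002 ± 0.36, adjusted p = 4.47e-07). Its co-receptor Tdgf1, also known as Cripto, had 2.15, 4.205, 14.3 and 12.5 CPM against 386, 135, 390.5 and 472 CPM (-5.58 ± 0.51, adjusted p = 3.67e-06). Both fell in all 4 double KO libraries, and in both colony 2 kept more than colony 1. Gdf3, a related ligand of the TGF-beta family, went the other way, with 497, 559, 371 and 447 CPM against 125, 120.3, 135 and 123 CPM (1.88 ± 0.23, adjusted p = 3.92e-05). Fgfbp1, which releases stored FGF from the matrix, was the other riser, with 31.6, 32.8, 141 and 97.9 CPM against 1.201, 4.14, 1.63 and 8.92 CPM (4.31 ± 0.67, adjusted p = 0.000237). Groups did not overlap for either gene.

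Markers of the next, formative and primed stages fell as well. Of 13 such genes, 7 fell and 4 rose, with a median of -2.10, against 18.4% of all genes falling and 28.5% rising. Otx2, the factor that opens the formative program, had 0, 0.214, 0.0574 and 0 CPM in double KO and 16.8, 16.5, 3.41 and 46.6 CPM in miR-302 KO libraries (-6.25 ± 0.58, adjusted p = 3.88e-06). Pou3f1, also known as Oct6, fell by 4.77, Dnmt3b by 3.17 and Zic2 by 2.10. Sox11, an SRY-box factor of neural and mesenchymal progenitors, rose: it had 1012, 1189, 915 and 860.1 CPM against 68.6, 65.02, 32.8 and 49.3 CPM (4.25 ± 0.35, adjusted p = 1.35e-06). Every double KO library lay more than 10 times above every miR-302 KO library. Sall2 rose by 1.13 and Lef1 by 1.54. Without miR-302 KO colony 1 neither was called, and the list had 1 riser, Sox11, and 7 falls.

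Lin28a and Lin28b fell to below 1 CPM. Lin28a and Lin28b bind the let-7 precursors and block their maturation, and let-7 in turn represses both. Lin28a had 0.189, 0.5701, 0.402 and 0.481 CPM in double KO libraries and 127, 248, 189.9 and 122 CPM in miR-302 KO libraries (-8.28 ± 0.28, adjusted p = 5.89e-10). Lin28b had 0.568, 0, 0 and 0.0601 CPM against 13.8, 15.9, 10.5 and 13.9 CPM (-5.87 ± 0.36, adjusted p = 1.07e-07). Groups were separate by more than 10-fold for both. Of 13 genes of the axis and of let-7 targets, 9 fell and none rose, with a median of -1.29. The shares of all genes were 18.4% falling and 28.5% rising. Without the library that stood apart 10 of the 13 fell and 1 rose. Among the let-7 targets Igf2bp1 fell by 1.71, Hic2 by 1.80 and Arid3b by 2.36, and Hmga2 (adjusted p = 0.998) did not pass the test. L1td1, an RNA-binding partner of Lin28a, had 548, 514, 649 and 691 CPM against 383, 726, 531 and 367.5 CPM, with overlapping groups (adjusted p = 0.276).

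Genes reported as targets of these microRNAs were mostly higher once both clusters were gone. Of 24 such genes, 18 rose and 1 fell, with a median log2 difference of 1.52, against 28.5% of all genes rising and a median of 0.24. Without the library that stood apart 18 rose and 2 fell, and under median-of-ratios scaling 18 and 3. A site that pairs with the whole AAGUGCU seed reads AGCACTT in the message, and 20 of the 24 genes had at least 1 in the longest annotated 3′ UTR. Each site printed here is followed by an A, a feature common in known targets that most sites of the listed genes lack. Cdkn1a, Lats2 and Tgfbr2 also have sites without it, which are not printed. For 6 of the risers a site and its flanks are given below on the strand of the message (GENCODE M21, GRCm38), with the site in capitals.
Cdkn1a, chr17:29100488-29100512, + strand: cgtgggtgtcaaAGCACTTagtggg
Lats2, chr14:57691081-57691105, - strand: cagtatggaaagAGCACTTattttg
Tgfbr2, chr9:116087766-116087790, - strand: atcaaaacctaaAGCACTTattttc
Rbl2, chr8:91123818-91123842, + strand: atttttcaataaAGCACTTataaat
Irf2, chr8:46846652-46846676, + strand: accttatcttgaAGCACTTacaata
Smarcc2, chr10:128489799-128489823, + strand: tcaagtttgaaaAGCACTTaagcac
Sites differ in their flanks and share the 7 bases in capitals. The genes without such a site were Nr2f2, Dkk1, Kdm1b and Slain1.

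Cdkn1a, which encodes the CDK inhibitor p21 and is the best known target of the family in stem cells, was counted at 772, 1014, 879.9 and 816 CPM in double KO libraries and 168, 286, 226 and 159 CPM in miR-302 KO libraries. All double KO libraries lay above all miR-302 KO libraries (2.08 ± 0.24, adjusted p = 2.64e-05). Lats2, the Hippo kinase that phosphorylates Yap1, had 143, 152, 119.5 and 104 CPM against 10.2, 0.2698, 7.39 and 12.2 CPM (4.85 ± 0.54, adjusted p = 1.94e-05). The lowest of these, 0.270 CPM, was in the library that stood apart; the other 3 libraries of its group had 7.39 CPM or more. Tgfbr2, the type II receptor for TGF-beta, had 20.1, 19.8, 22.3 and 17.7 CPM against 0, 0, 0.713 and 0.048997 CPM (6.39 ± 1.17, adjusted p = 0.000786). Double KO values were even, and 2 of the miR-302 KO libraries had no read.

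Irf2, a repressor of interferon targets, had 29.1, 35.4, 18.3 and 18.6 CPM against 1.14, 0.0899, 0.153 and 0.343 CPM (5.75 ± 0.70, adjusted p = 3.94e-05). Rbl2, the pocket protein p130 that holds E2F genes silent in resting cells, had 18.4, 26.8, 24.03 and 20.3 CPM against 2.97, 0.1799, 3.57 and 4.85 CPM (3.43 ± 0.55, adjusted p = 0.000325). Smarcc2, the BAF subunit BAF170 that is low in stem cells, had 53.03, 55.02, 48.5 and 51.8 CPM against 17.7, 15.8, 12.8 and 16.1 CPM (1.74 ± 0.27, adjusted p = 0.000224). All 3 genes were higher in every double KO library. Rhoc, a small GTPase of the cytoskeleton, rose from 51.7 ± 7.895 to 285 ± 35.1 CPM. The actin-severing Cfl2 rose from 36.8 ± 1.21 to 102 ± 10.5 CPM.

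Genes with and without a site were found among both the risers and the rest. Nr2f2, an orphan nuclear receptor of mesenchymal cells with no AGCACTT in its 3′ UTR, had the largest rise of the list, with 75.3, 70.2, 156 and 164 CPM against 0.8004, 0, 1.73 and 1.47 CPM (7.08 ± 0.74, adjusted p = 1.13e-05). Dkk1, a secreted Wnt inhibitor that also lacks the site, was the 1 gene that fell, with 0.0631, 0, 0.0574 and 0 CPM against 2.29, 1.17, 1.99 and 1.27 CPM (adjusted p = 0.000546; not called on log2(CPM + 5) values). Its 2 double KO reads put the ratio of the groups at 54.95-fold (95% interval 14.9 to 459, exact, for counting error only). Of the genes not called, Arid4a, Arid4b and Bcl2l11 carry a site and had log2 differences of -0.98, 0.14 and 0.18.

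**Figure D2:**
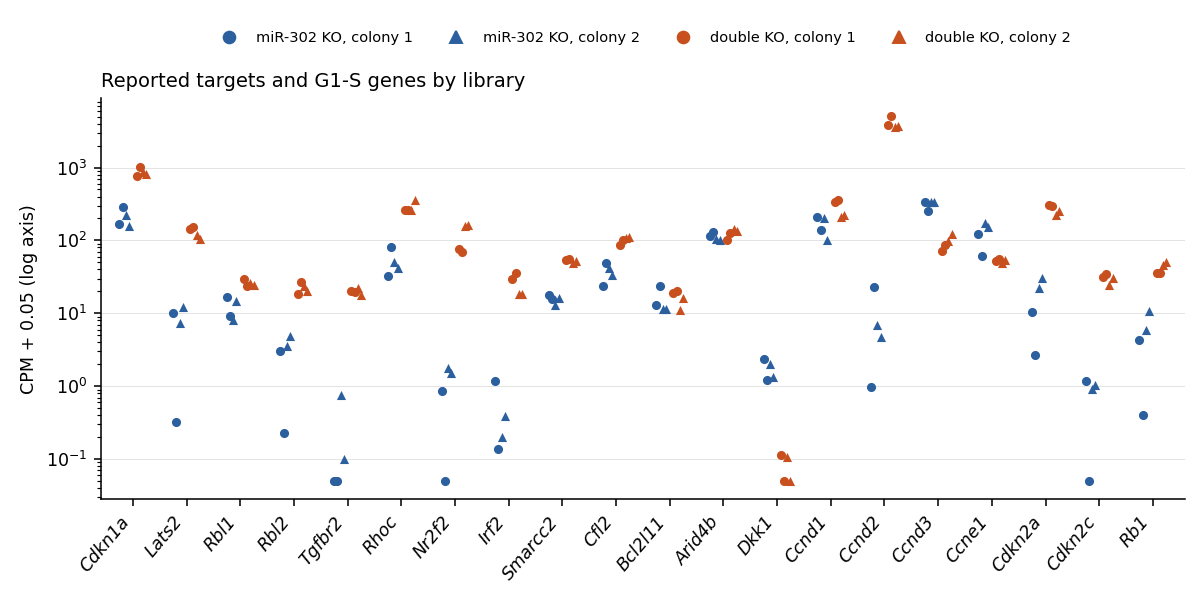
CPM + 0.05 on a log axis for 13 reported targets (Cdkn1a to Dkk1) and 7 further G1-S genes (Ccnd1 to Rb1) in each of the 8 libraries (blue, miR-302 KO; orange, double KO; circles, colony 1; triangles, colony 2). The groups did not overlap for Cdkn1a, Lats2, Rbl2, Tgfbr2, Irf2 and Ccnd2, and overlapped for Arid4b and Ccnd1.

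Over all genes, those with a site had a somewhat higher median difference. An AGCACTT on the strand of the message was found in the longest 3′ UTR of 1666 genes once (14.1% of the 11837 genes with an annotated 3′ UTR) and of 390 genes at least 2 times (3.3%). The median log2 difference was 0.21 without a site, 0.42 with 1 site and 0.51 with 2 or more. The share called higher was 27.8%, 33.1% and 37.7%, which is 2724, 551 and 147 genes. The number called lower was 1867, 236 and 56. Genes with sites also had longer 3′ UTRs, with a median of 2295 bases at 1 site and 3934 at 2 or more against 941 without a site, and among genes without a site the median also rose from the shortest to the longest of 4 equal length classes. In the shortest class the median was -0.03 without a site and 0.39 with at least 1. In the 3 longer classes the medians were 0.18 against 0.27, 0.37 against 0.42, and 0.50 against 0.46. The gap was thus widest among short 3′ UTRs, where 75 genes had a site, and had the opposite sign among the longest. The same count was made for let-7a-5p and for miR-367-3p, a member of the miR-302 cluster, which is knocked out in both groups. With no, 1 and at least 2 sites the medians were 0.24, 0.36 and 0.86 for miR-367-3p (GTGCAAT), and 0.25, 0.26 and -0.01 for let-7a-5p (CTACCTC). With 1 and at least 2 sites the median 3′ UTR lengths were 2413 and 3794 bases for miR-367-3p, and 2177 and 3669 bases for let-7a-5p. All of these medians and shares are descriptions over genes, which are not replicates, and no test was made of them.

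**Figure D3:**
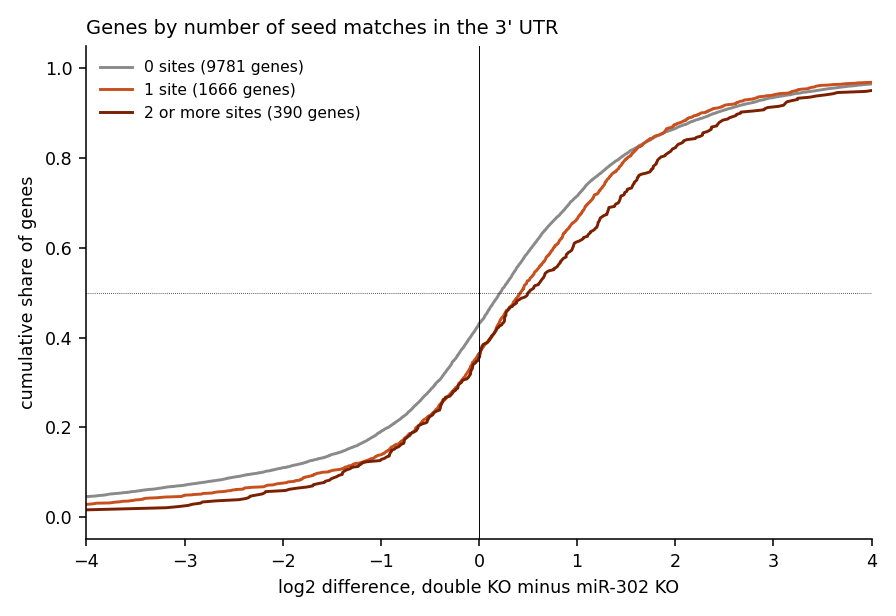
Cumulative share of genes (vertical axis) by log2 difference, double KO minus miR-302 KO (horizontal axis, shown from -4 to 4), for genes with no, 1 or at least 2 AGCACTT in the 3′ UTR. The curves of genes with sites lie to the right, with medians of 0.42 and 0.51 against 0.21.

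The genes that brake and drive the G1-S transition were rearranged. Of 22, 11 rose and 3 fell (median 1.05), against 28.5% of all genes rising and 18.4% falling. The counts were the same without the library that stood apart, and in the fit of the 4 colonies alone 1 fell. Among the inhibitors of cyclin-dependent kinases, Cdkn2a, whose locus encodes p16 and p19Arf, had 304, 295, 221 and 253 CPM in double KO and 10.3, 2.61, 22.4 and 30.7 CPM in miR-302 KO libraries (4.48 ± 0.57, adjusted p = 5.2e-05). Cdkn2c, or p18, had 31.9, 34.9, 24.6 and 30.96 CPM against 1.14, 0, 0.866 and 0.9799 CPM (5.50 ± 0.86, adjusted p = 0.00025). Cdkn2b rose by 2.73 and Cdkn2d by 2.09. Together with p21, 5 inhibitor genes were higher in every double KO library. Rb1, the retinoblastoma protein, had 36.1, 35.4, 45.8 and 50.1 CPM against 4.29, 0.3597, 5.91 and 10.8 CPM (3.58 ± 0.62, adjusted p = 0.00055), and its relative Rbl1 rose by 1.16.

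The D-type cyclins, which activate Cdk4 and its relative, changed in order. Ccnd2 had 3854, 5018, 3620.0 and 3737 CPM in double KO libraries and 0.915, 23.1, 6.78 and 4.75 CPM in miR-302 KO libraries (9.55 ± 0.37, adjusted p = 1.39e-09). Ccnd3 had 72.3, 87.4, 97.4 and 121 CPM against 339, 254, 341 and 339.7 CPM (-1.76 ± 0.33, adjusted p = 0.000917). Ccnd1 had 336, 357, 211 and 224 CPM against 212, 139.6, 204 and 99.8 CPM, with overlapping groups (0.81 ± 0.32, adjusted p = 0.0544). Ccnd2 therefore went from the lowest to the highest CPM of the 3, on a 3′ end count in which each transcript gives about 1 tag whatever its length. Cdk4 (-0.10, adjusted p = 0.666), Cdk2 (0.22, adjusted p = 0.639) and E2f1 (-0.03, adjusted p = 0.949) did not pass the test. Cdk6, the relative of Cdk4, fell by 1.52 (adjusted p = 0.0106). Ccne1 fell by 1.17 (adjusted p = 0.00427), and Ccne2 rose by 1.03 (adjusted p = 0.00835).

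Several receptors and targets of the BMP branch rose. Of 23 genes of TGF-beta, activin, Nodal and BMP signaling, 13 rose and 3 fell (median 1.48), and 12 and 3 without the library that stood apart. Of all genes, 28.5% rose and 18.4% fell. The ligand Bmp4 had 67.8, 109, 29.1 and 48.2 CPM against 5.95, 14.4, 16.96 and 2.99 CPM (2.78 ± 0.56, adjusted p = 0.0016). Of the BMP receptors, Bmpr2 rose by 2.34, Acvr1 by 3.18 and Bmpr1a by 1.01, and the activin receptor Acvr2a by 2.58. Its relative Acvr2b fell by 1.345 (adjusted p = 0.0112), and the lowest log2 difference of the list was -4.02. Of the transducers, Smad5 rose by 1.48, and Smad1 (0.16, adjusted p = 0.735), Smad2 (0.57, adjusted p = 0.0931) and Smad4 (0.36, adjusted p = 0.328) did not pass the test. Id1, the standard BMP-Smad target, had 486, 419, 927 and 789 CPM against 53.9, 18.1, 49.2 and 19.7 CPM (4.31 ± 0.46, adjusted p = 1.23e-05). Id2 had 256, 309, 761 and 672 CPM against 31.7, 36.96, 29.95 and 39.4 CPM, and Id3 197, 164, 528 and 412 CPM against 113, 6.66, 57.7 and 76.4 CPM. Id1, Id2 and Id3 were higher in every double KO library, and highest in colony 2.

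In the Hippo pathway 8 of 15 genes rose and none fell (median 1.58), also without the library that stood apart. Over all genes 28.5% rose and 18.4% fell. Beside Lats2, the kinase Lats1 rose from 6.56 ± 0.826 to 31.7 ± 1.5999 CPM and its scaffold Sav1 from 10.9 ± 1.89 to 42.4 ± 10.4 CPM. The co-activator Wwtr1, or Taz, rose from 51.3 ± 1.74 to 256 ± 10.8 CPM (2.33 ± 0.25, adjusted p = 1.51e-05), and its DNA-binding partner Tead1 from 73.7 ± 7.59 to 191 ± 15.2 CPM. Amotl2, a target and inhibitor of Yap, rose by 2.48. Yap1 itself had 151, 173, 152 and 157 CPM against 167, 23.9, 108 and 162 CPM and did not pass the test (0.79, adjusted p = 0.0501).

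Epithelial genes fell and mesenchymal genes rose. Of 24 epithelial junction and keratin genes, 15 fell and 2 rose (median -2.69), against 18.4% of all genes falling and 28.5% rising. Without the library that stood apart 16 fell and 3 rose. Cldn4, a tight junction protein, had 0.0631, 0.143, 0.229 and 0.1202 CPM in double KO and 127, 73.5, 88.2 and 144 CPM in miR-302 KO libraries (-8.58 ± 0.31, adjusted p = 9.37e-10). Spint1, an epithelial protease inhibitor, had 0.126, 0.0713, 0.115 and 0 CPM against 107, 38.04, 68.6 and 49.8 CPM (-8.17 ± 0.30, adjusted p = 9.54e-10). Cdh1, which encodes E-cadherin, had 9.85, 16.03, 99.9 and 119 CPM against 650.3, 483, 753 and 454 CPM (-3.94 ± 0.66, adjusted p = 0.000415). Double KO colony 2 kept several times more Cdh1 than colony 1, and both lay below the miR-302 KO libraries. The simple keratins Krt8 and Krt18 fell by 5.18 and 5.66, and Epcam by 3.48. Jup, or plakoglobin, a catenin of desmosomes and adherens junctions, rose, with 899, 774, 540.5 and 415 CPM against 106, 21.9, 112 and 72.7 CPM (3.25 ± 0.46, adjusted p = 0.00013). Tjp1, or ZO-1, rose by 1.09, a call that ended when colony 1 of either group was left out.

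Of 18 mesenchymal regulators and cytoskeletal genes listed, 13 were measured. Of these 13, 8 rose and 1 fell (median 2.66), against 28.5% of all genes rising and 18.4% falling. The counts were the same without the library that stood apart. Vim, or vimentin, had 3197, 3074, 2165 and 1760.3 CPM in double KO libraries and 114, 99.3, 193 and 78.7 CPM in miR-302 KO libraries (4.43 ± 0.33, adjusted p = 6.24e-07). Cdh2, or N-cadherin, had 224, 167, 182 and 207 CPM against 7.66, 1.17, 6.47 and 7.94 CPM (5.33 ± 0.62, adjusted p = 2.69e-05). S100a6, a calcium-binding protein of mesenchymal cells, had 2698, 3514, 2834 and 3316 CPM against 12.1, 1.89, 2.19 and 7.203 CPM (9.40 ± 0.61, adjusted p = 1.65e-07). Each of the 3 was higher in every double KO library. Zeb2, a repressor of E-cadherin, had 36.99, 27.6, 21.3 and 17.1 CPM and no read in any miR-302 KO library, at least 589-fold higher against a floor of 3 reads over the group (adjusted p = 3.41e-05). Its relative Zeb1 had 37.1, 45.5, 29.3 and 28.6 CPM against 17.6, 54.9, 19.2 and 14.7 CPM and did not pass the test (adjusted p = 0.295). The receptor kinase Axl rose by 4.72 and the protease Mmp14 by 3.46, and Fn1 (0.43, adjusted p = 0.373) did not pass the test. The protease Mmp2 was the gene that fell, with 0, 0, 0.172 and 0.0601 CPM against 1.43, 12.9, 8.71 and 5.096 CPM (-4.88 ± 0.46, adjusted p = 4.23e-06).

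Markers of fibroblasts, the cells from which the colonies were made, did not rise with these genes. Of 12 fibroblast markers 3 were measured, and their summed level was 0.287 to 0.998 CPM in double KO and 3.87 to 13.9 CPM in miR-302 KO libraries. Of the 3, 1 fell, against 18.4% of all genes, and 2 fell without the library that stood apart. Thy1, the surface antigen that MEFs lose early in reprogramming, had 0, 0, 0 and 0.601 CPM against 1.77, 3.87, 2.85 and 4.75 CPM (-3.93 ± 0.87, adjusted p = 0.00276). Col1a1 had 0.189, 0.998, 0 and 0.361 CPM against 2.57, 0, 0.153 and 4.8997 CPM (adjusted p = 0.422), and Pdgfrb 0.126, 0, 0.287 and 0 CPM against 0.343, 0, 3.52 and 4.26 CPM (adjusted p = 0.106). The other 9 fibroblast markers have no row in the deposited matrix, so the statement covers the 3 measured genes only.

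Among 14 contractile actin genes 7 rose and 2 fell (median 1.02), and none fell in the fit of the 4 colonies alone. Log2 differences ran from -4.48 to 2.79, so the largest change in size was negative. Myl9 fell by 3.22 (adjusted p = 0.00495), and Acta2 (2.54, adjusted p = 0.0859) did not pass the test. The actin-binding caldesmon gene Cald1 rose by 2.79, the tropomyosins Tpm4 and Tpm1 by 2.05 and 1.74, filamin A (Flna) by 1.36 and the non-muscle myosin Myh9 by 1.11. Of 21 collagens, laminins and integrins listed 16 were measured, and 8 of these rose and 2 fell (median 0.95). Over all genes 28.5% rose and 18.4% fell. The type IV collagens of basement membranes led, with 616, 699.8, 719.7 and 760.4 CPM of Col4a1 in double KO and 19.8, 16.01, 15.6 and 30.8 CPM in miR-302 KO libraries (5.13 ± 0.34, adjusted p = 1.97e-07). Col4a2, which is transcribed from the same promoter region, had 320.1, 437, 331 and 378 CPM against 6.003, 21.5, 6.11 and 6.81 CPM (5.38 ± 0.59, adjusted p = 1.62e-05). Both were higher in every double KO library. Lamc1 rose by 2.33, and the integrins Itgb1 and Itgb5 rose by 2.49 and 2.11. Col18a1, another basement membrane collagen, fell, with 1.26, 2.35, 2.81 and 2.89 CPM against 74.1, 180.1, 103 and 126 CPM (-5.60 ± 0.31, adjusted p = 3.89e-08). Only 5 rises and 1 fall of this list were called in the fit of the 4 colonies alone, and 4 falls under median-of-ratios scaling.

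Surface proteins that are used to follow reprogramming changed in both directions. Of 10, 4 rose and 5 fell (median -2.67), against 28.5% of all genes rising and 18.4% falling. The counts were the same without the library that stood apart. Cd44, which is high in fibroblasts and early intermediates, had 229, 216, 775 and 775 CPM against 0.972, 0, 0.866 and 0.147 CPM (9.81 ± 0.84, adjusted p = 1.94e-06). Cd109 had 359, 340.4, 355 and 355 CPM against 0.457, 0.719, 2.24 and 1.18 CPM (8.29 ± 0.47, adjusted p = 4.67e-08). Colonies differed by several fold in Cd44 and were even in Cd109. Pecam1, an endothelial and stem cell antigen gained late, had 0.189, 0.356, 0.516 and 0.421 CPM against 76.6, 61.96, 94.96 and 98.2 CPM (-7.36 ± 0.35, adjusted p = 7.77e-09). Alpl, the alkaline phosphatase of stem cells, had 0.631, 1.995, 3.27 and 11.003 CPM against 188, 314, 195 and 213 CPM (-6.31 ± 0.50, adjusted p = 1.07e-06). Thy1, given above, is the member that is high in fibroblasts and fell. Cd24a rose by 2.54.

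The cells were grown with LIF, and genes of its pathway rose more often than they fell, as did all genes (28.5% rose and 18.4% fell). Of 9, 6 rose and 2 fell (median 1.41), and 4 rose without miR-302 KO colony 1. The kinase Jak2 had 61.4, 82.1, 38.1 and 46.5 CPM against 7.604, 3.51, 5.196 and 8.38 CPM (3.19 ± 0.43, adjusted p = 8.03e-05), and Jak1 rose by 1.41. Socs3, a direct target and feedback inhibitor of Stat3, had 66.2, 56.4, 69.1 and 34.9 CPM against 24.98, 1.17, 22.01 and 8.97 CPM (2.61 ± 0.54, adjusted p = 0.00188). Stat3 rose by 1.42 (adjusted p = 0.00584), a call that ended when miR-302 KO colony 1 was left out. The target Pim1 fell, with 18.8, 16.4, 15.7 and 12.9 CPM against 127, 83.1, 110.2 and 77.7 CPM (-2.62 ± 0.30, adjusted p = 2.69e-05).

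Several feedback inhibitors of ERK signaling rose. Of 11 genes of the FGF and ERK pathway 5 rose and 1 fell (median 0.92), against 28.5% of all genes rising and 18.4% falling. Without the library that stood apart 5 rose and 2 fell, and in the fit of the 4 colonies alone 3 rose and none fell. Dusp6, the ERK phosphatase, had 82.7, 87.6, 56.04 and 49.3 CPM against 1.26, 0.2698, 2.75 and 5.19 CPM (5.28 ± 0.60, adjusted p = 2.33e-05). Spry4, a Sprouty inhibitor, had 34.7, 31.6, 27.9 and 26.2 CPM against 2.06, 0.3597, 0.713 and 0.048997 CPM (5.53 ± 0.63, adjusted p = 2.31e-05). Dusp4 had 4.73, 4.703, 14.7 and 12.7 CPM against 0, 0, 0 and 0.343 CPM (5.41 ± 0.83, adjusted p = 0.000221). Groups did not overlap for these 3. Spry2 (-0.27, adjusted p = 0.684) and Etv5 (0.27, adjusted p = 0.438) did not pass the test.

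Of 14 p53 and apoptosis genes 7 rose and 1 fell (median 0.97), against 28.5% of all genes rising and 18.4% falling. Bcl2, which protects mitochondria from apoptosis, had 70.6, 72.5, 39.5 and 43.8 CPM against 0.0572, 4.497, 0.102 and 0.9799 CPM (6.27 ± 0.67, adjusted p = 1.25e-05). Ccng1, a p53 target, had 821, 967, 680.2 and 685 CPM against 138, 80.4, 118 and 184 CPM (2.64 ± 0.22, adjusted p = 1.82e-06), and Bbc3, the pro-apoptotic Puma, rose by 2.09. All double KO libraries were higher in each. Trp53 had 77.2, 55.5, 80.99 and 77.3 CPM against 89.7, 52.3, 53.03 and 122 CPM (adjusted p = 0.937). Without miR-302 KO colony 1, and also under median-of-ratios scaling, 5 of the 14 rose.

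Of 20 Myc and glycolysis genes 7 fell and 1 rose (median -0.39), against 18.4% of all genes falling and 28.5% rising. The phosphofructokinase Pfkp had 0.694, 1.21, 1.43 and 0.541 CPM against 141, 297, 180.0 and 169 CPM (-7.49 ± 0.31, adjusted p = 2.43e-09). Mycl had 0.126, 0, 0.172 and 0.1202 CPM against 22.1, 2.34, 25.8 and 23.9 CPM (-5.85 ± 0.52, adjusted p = 2.58e-06). Pgam1 fell by 1.28, and Aldoa, known only by its deposited log2 values, by 2.19. Pfkm (-0.20, adjusted p = 0.579), Hk2 (-0.31, adjusted p = 0.426) and Tpi1 (0.05, adjusted p = 0.919) did not pass the test. In the fit of the 4 colonies alone 4 genes of this list fell and none rose.

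Of 13 genes of DNA methylation, its removal and its readout 2 rose and 5 fell, with a median of 0.01 (4 and 6 without the library that stood apart). The shares of all genes were 28.5% rising and 18.4% falling. Dnmt3l, the cofactor of the de novo methyltransferases, had 0.316, 0.356, 1.32 and 0.481 CPM against 245, 452, 339 and 229 CPM (-8.82 ± 0.30, adjusted p = 5.98e-10). Dnmt3b had 5.75, 6.41, 6.25 and 6.55 CPM against 89.02, 40.4, 68.98 and 43.1 CPM (-3.17 ± 0.32, adjusted p = 8.59e-06). Dnmt3a (0.78, adjusted p = 0.0914) and the maintenance enzyme Dnmt1 (0.01, adjusted p = 0.959) did not pass the test. Among the TET dioxygenases, which oxidise methylcytosine, Tet1 had 15.2, 12.3, 10.4 and 5.41 CPM against 179.9, 267, 153 and 121 CPM (-4.07 ± 0.41, adjusted p = 7.83e-06). Tet3 had 30.6, 39.3, 31.2 and 34.5 CPM against 1.601, 4.59, 2.6999 and 6.76 CPM (3.25 ± 0.42, adjusted p = 5.61e-05). Tet1 was lower and Tet3 higher in every double KO library.

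Of 13 genes of microRNA processing and Argonaute function 5 rose and 3 fell (median -0.13), against 28.5% of all genes rising and 18.4% falling. Without the library that stood apart 5 rose and 1 fell, without miR-302 KO colony 1 or with the 4 colonies alone 4 rose and 1 fell, and under median-of-ratios scaling 4 rose and 4 fell. Xpo5, the exporter of precursor microRNAs, fell by 1.69 (adjusted p = 0.00191). Prkra, or PACT, a partner of Dicer, had 85.6, 65.5, 38.9 and 43.5 CPM against 7.204, 12.7, 7.998 and 8.38 CPM (2.63 ± 0.37, adjusted p = 0.000121). The silencing scaffolds Tnrc6a and Tnrc6b rose by 1.05 and 1.39. Drosha (-0.13, adjusted p = 0.72), Dgcr8 (-0.36, adjusted p = 0.217) and Ago2 (-0.15, adjusted p = 0.733) did not pass the test.

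Imprinted genes fell more often than they rose: of 19, 9 fell and 2 rose (median -1.89), also without the library that stood apart. Over all genes 18.4% fell and 28.5% rose. The maternally expressed RNAs of the Meg3 locus were nearly silent in double KO libraries. Low Meg3 was not particular to them: iPSC with knockout of miR-290 alone had 333 CPM in colony 1 and 2.52 CPM in colony 2. Rian had 0.126, 0.0713, 0.115 and 0.0601 CPM against 94.7, 75.8, 112 and 86.6 CPM (-8.62 ± 1.08, adjusted p = 4.76e-05), and Meg3 had 0.126, 0, 0.115 and 0.0601 CPM against 433, 428, 237 and 285 CPM (-10.64 ± 1.43, adjusted p = 8.22e-05). Mest had 0, 0.143, 1.43 and 0.421 CPM against 67.01, 21.1, 57.5 and 81.9 CPM (-6.88 ± 0.57, adjusted p = 1.44e-06). H19 had 5.75, 13.7, 1.61 and 0.962 CPM against 67.9, 543, 63.9 and 506 CPM (-5.72 ± 0.84, adjusted p = 0.000171). Igf2r fell by 3.997. Sgce, a sarcoglycan, rose, with 49.7, 52.5, 38.4 and 39.7 CPM against 2.46, 0.2698, 0.917 and 15.3 CPM (4.45 ± 0.76, adjusted p = 0.000505). Its neighbour Peg10 had 45.96, 41.4, 592 and 459.5 CPM against 26.6, 64.7, 31.5 and 167 CPM and did not pass the test (adjusted p = 0.219).

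**Figure D4:**
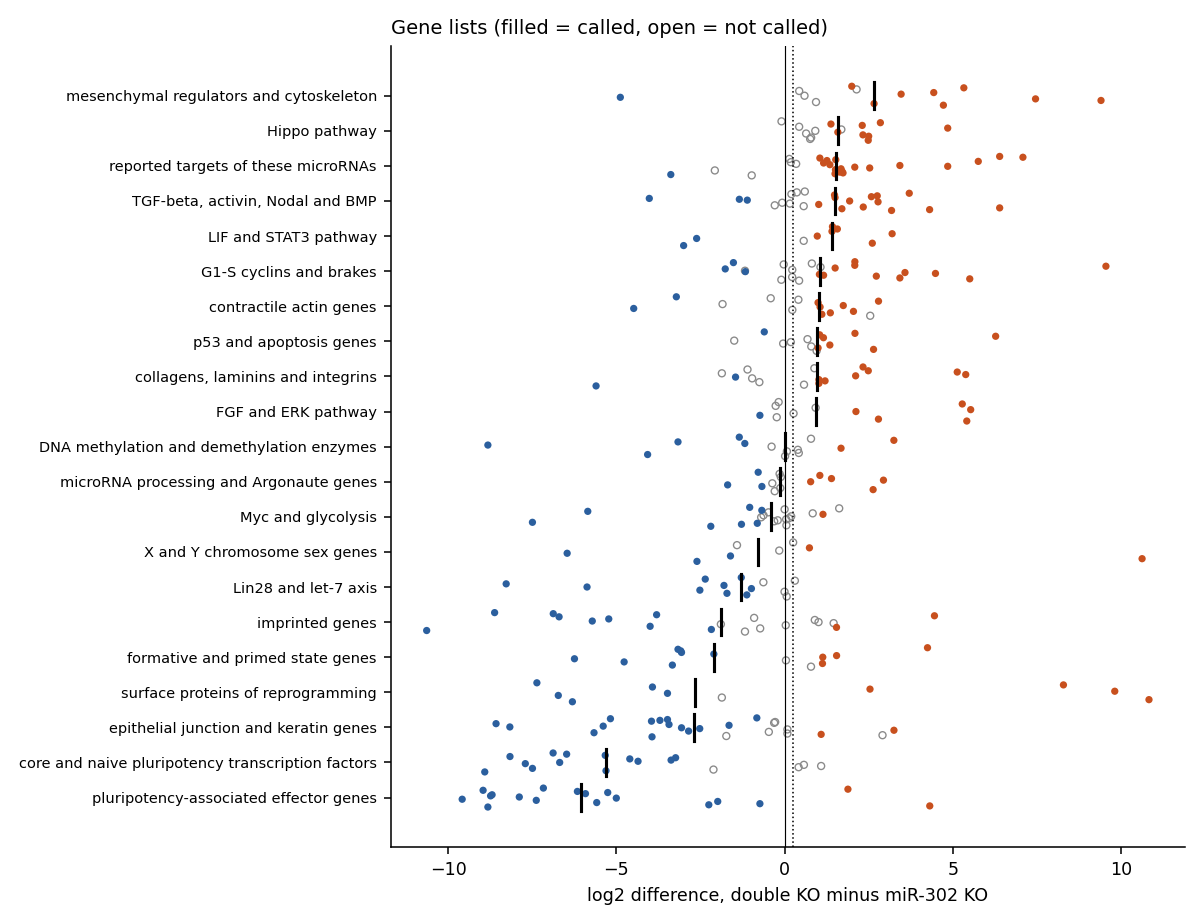
Each point is 1 gene of a list (vertical axis), placed by its log2 difference, double KO minus miR-302 KO (horizontal axis), filled where called (orange higher, blue lower) and open where not. Black bars are list medians, from -6.04 for pluripotency-associated effector genes to 2.66 for mesenchymal regulators, and the dotted line is the median of all genes, 0.24.

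Markers of other lineages gave no uniform picture. Their counts are to be read against 28.5% of all genes rising and 18.4% falling. All 8 pluripotent stem cell markers fell, and their summed level, over the 7 with recovered reads, was 52.8 to 90.3 CPM in double KO and 2844 to 3615 CPM in miR-302 KO libraries. The cells labelled double KO iPSC thus had the defining markers of the labelled cell type at a small part of the level of their miR-302 KO counterparts. Of 5 neural progenitor markers measured, 3 rose and 1 fell: Sox1 had 63.9, 59.4, 54.4 and 74.7 CPM against 16.5, 5.76, 9.27 and 4.998 CPM (2.92 ± 0.45, adjusted p = 0.000221), Nes rose by 2.39 and Map2 by 2.39, Tubb3 fell by 2.45, and Pax6 was at 0.120 CPM or less in double KO libraries (adjusted p = 0.504). Of 6 trophoblast markers 1 rose and 2 fell: Tfap2a had 60.2, 54.6, 92.8 and 85.8 CPM against 8.58, 9.08, 4.38 and 12.3 CPM (3.13 ± 0.37, adjusted p = 3.1e-05), and Gata3 fell by 2.47. Cdx2 had 0.758, 0.285, 21.2 and 22.4 CPM in double KO libraries, high in colony 2 alone, and 0.515, 3.87, 3.67 and 1.96 CPM in miR-302 KO libraries (adjusted p = 0.619). Of 5 mesendoderm markers 1 rose and 3 fell, and Gsc had no read in any double KO library against 6.63, 0.2698, 5.09 and 5.39 CPM, at least 92.7-fold lower (adjusted p = 9.89e-05). Of 8 extraembryonic endoderm markers 2 were measured and 1 fell.

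The largest rises by log2 difference were those of Ly6a, Xist, Sprr2a1, Tenm2, Sprr2a2, Ghr, Ly6c1 and Mef2c. Ghr, the growth hormone receptor, had 345, 298, 303 and 204 CPM in double KO libraries and 0, 0.0899, 0.102 and 0.196 CPM in miR-302 KO libraries (10.28 ± 0.76, adjusted p = 5.64e-07). Tenm2, a synaptic adhesion protein, had 235, 231, 135 and 198 CPM, and Mef2c, a muscle and neural transcription factor, 222, 207, 78.4 and 75.04 CPM. Neither had a read in any miR-302 KO library, which makes them at least 4569-fold and at least 3327-fold higher against a floor of 3 reads over the group. Ly6c1 had 127, 163, 289.7 and 242 CPM and 3 reads over the miR-302 KO libraries, a ratio of 4792 (95% interval 1639 to 23239, exact). Ly6a, also known as Sca-1, had 1373, 1554, 1241 and 1161 CPM against 0.0572, 0.0899, 0.255 and 15.3 CPM (10.83 ± 1.70, adjusted p = 0.00026), and 1 library of miR-302 KO colony 2 stood well above the other 3. Sprr2a1 and Sprr2a2 are near-identical copies without recovered reads, so their deposited log2 differences of 10.57 and 10.36 may be shared between them.

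The largest falls were those of Meg3, Rex2, Dppa5a, Rpl39l, Pla2g1b, Fmr1nb, Mcf2 and Dppa2. Rpl39l, a ribosomal protein paralog of germ cells and stem cells, had 109.5, 83.7, 142 and 85.7 CPM in miR-302 KO libraries and no read in double KO libraries, at least 2245-fold lower. Pla2g1b, a secreted phospholipase, had 96.7, 131, 95.6 and 72.3 CPM and no read, at least 2108-fold lower. Mcf2, an X-linked exchange factor for small GTPases, had 76.4, 40.2, 74.8 and 148 CPM and no read, at least 1808-fold lower. Fmr1nb, an X-linked germ cell antigen, had 93.5, 91.4, 80.9 and 96.5 CPM and 1 read in double KO libraries, a ratio of 5784 (95% interval 1038 to 228480.0, exact). In these 4 genes the miR-302 KO libraries were high without exception. Rex2, a zinc finger gene with several copies and no recovered reads, differed by -9.72 ± 0.28 in its deposited log2 values.

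The same loss in cells that kept miR-302, miR-290 KO iPSC (4 libraries, 2 colonies) minus WT iPSC (3 libraries, wild type), was accompanied by fewer calls. Both groups were reprogrammed and grown in the same way, but the WT libraries are excepted from the statement that replicates were derived independently, so their spread may understate that between derivations. In that comparison 201 genes were called (1.57% of all genes), and 156 of them were called with the same sign in double KO minus miR-302 KO and 17 with the opposite sign. The Y-linked Ddx3y was among the 201, at 47.3 ± 3.7 CPM in miR-290 KO and 8.16 ± 0.438 CPM (SD, n = 3 libraries) in WT cells. Its log2 difference was 2.51 ± 0.30 (adjusted p = 0.00396). What part such a difference in the cells plays in the other calls, and in the difference of the 2 losses, was not tested. The difference of the 2 losses, which share no sample, was tested in the same fit: 1527 genes (12.0%) were more positive and 1494 genes (11.7%) more negative when miR-302 was absent. Of these, 2890 were also called in double KO minus miR-302 KO. The number of genes called for this difference ranged from 1834 without miR-290 KO colony 2 to 3817 without miR-302 KO colony 2; the former, and 1942 without miR-302 KO colony 1, 1959 without double KO colony 1 and 1988 without colony 1 library 1 of the miR-302 KO cells, lie more than 1.5-fold below the 3021 of all samples.

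The 5 genes with the most negative difference were Dnmt3l, Utf1, Rex2, Lefty2 and Dppa2. Dnmt3l was at 439.6 ± 2.14 CPM in miR-290 KO and 248 ± 21.03 CPM (SD, n = 3 libraries) in WT cells, a log2 difference of 0.82 ± 0.27 with miR-302 present against -8.82 ± 0.30 with miR-302 absent (difference -9.64 ± 0.41, adjusted p = 1.46e-08). Utf1 was at 163 ± 23.7 and 101 ± 9.86 CPM (difference -9.37 ± 0.41, adjusted p = 1.96e-08), and Dppa2 at 112 ± 2.35 and 118 ± 24.8 CPM (difference -8.90 ± 0.39, adjusted p = 2.03e-08). The differences of Rex2 and Lefty2 in deposited log2 values were -9.31 ± 0.38 and -9.09 ± 0.36. Dnmt3l, Utf1 and Dppa2 were thus expressed in miR-290 KO iPSC and nearly silent in double KO iPSC.

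The 5 genes with the most positive difference were Sprr2a2, Kcnma1, Xist, Tenm2 and Igfbp3. Igfbp3, a secreted carrier of insulin-like growth factors, had 1093, 1498, 771 and 788 CPM in double KO and 2.74, 0.1799, 0.917 and 6.61 CPM in miR-302 KO libraries, and was at 9.802 ± 0.0773 CPM in miR-290 KO and 5.47 ± 2.65 CPM in WT cells (difference 8.31 ± 0.79, adjusted p = 1.33e-05). Kcnma1, a calcium-activated potassium channel, had 48.4, 21.9, 48.7 and 59.7 CPM in double KO libraries and 2 reads over the miR-302 KO libraries, a ratio of 1566 (95% interval 433 to 12937, exact), and was at 0.274 ± 0.204 CPM in miR-290 KO and 0.489 ± 0.237 CPM in WT cells (difference 8.72 ± 1.41, adjusted p = 0.000976). Xist was at 1.26 ± 1.61 CPM in miR-290 KO and had no read in WT cells (8.48 ± 1.78, adjusted p = 0.00519). The fitted differences of Tenm2 and Sprr2a2 were 8.37 ± 1.13 and 10.90 ± 1.83; where a group has few or no reads such a value depends on the prior added before the logarithm. Igfbp3, Kcnma1 and Xist were thus far higher in double KO cells than in the 3 other iPSC groups.

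Among the core and naive factors 13 of 17 had a more negative difference and none a more positive one, and the median of miR-290 KO minus WT was -0.42 with no gene called. Among effector genes 14 of 18 were more negative, and among epithelial genes 12 of 24, against 11.7% of all genes. The reported targets had a median of 0.82 in miR-290 KO minus WT, with 2 of 24 called, against 1.52 in double KO minus miR-302 KO. The difference was more positive in 9 of the 24 and more negative in 2, against 12.0% and 11.7% of all genes. Cdkn1a was at 354 ± 114 CPM in miR-290 KO and 191 ± 33.99 CPM in WT cells (0.85 ± 0.22, adjusted p = 0.0745), and its difference between contexts was 1.23 ± 0.33 (adjusted p = 0.0183). Ccnd2 was at 57.2 ± 22.02 and 5.71 ± 2.17 CPM (3.31 ± 0.34, adjusted p = 0.00221), a rise with miR-302 present that was larger without it (6.24 ± 0.51, adjusted p = 3.23e-06). For Tgfbr2, at 2.604 ± 1.36 and 0.351 ± 0.608 CPM, the difference between contexts did not pass the test (3.51 ± 1.58, adjusted p = 0.126).

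**Figure D5:**
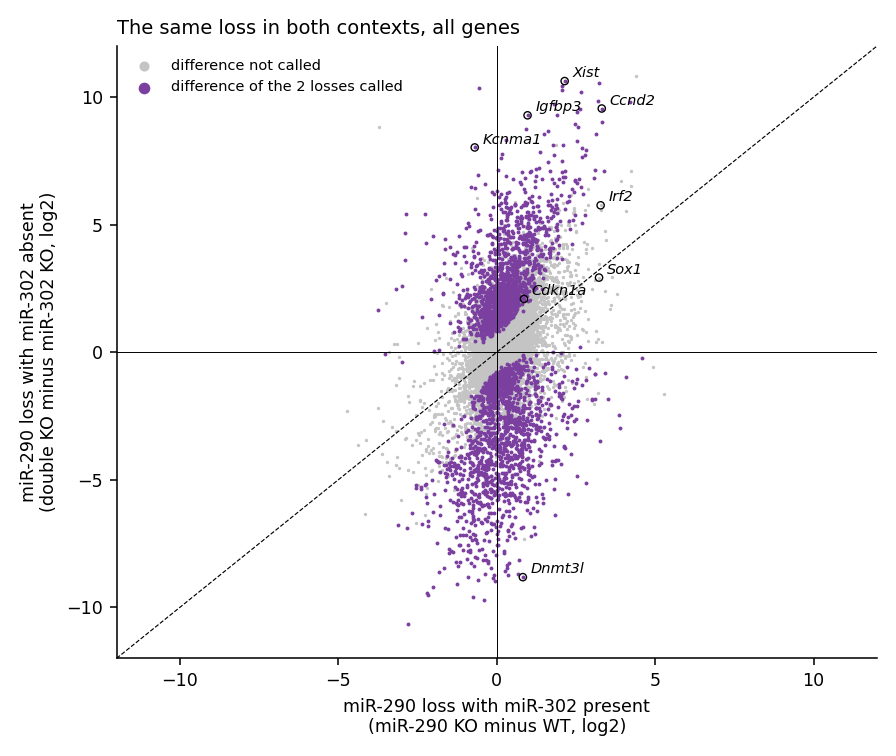
Each point is 1 gene, placed by its log2 difference in miR-290 KO minus WT (horizontal axis) and in double KO minus miR-302 KO (vertical axis); purple genes, 3021 in all, have a called difference between the 2, and the dashed line marks equal differences. Purple genes spread further along the vertical axis than along the horizontal one, among them Dnmt3l at -8.82 and Ccnd2 at 9.55 on the vertical axis.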

How the data were processed

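QuantSeq 3′ libraries of 19 mouse samples were compared. The authors' deposited matrix holds log2 values, although its name says counts: log2 CPM with a small prior count and a constant per gene. Per the submitters' processing notes, Trim Galore 0.66, STAR, Salmon 1.4.0, limma and DESeq2 1.34.0 were used with mm10, and the step for which each served is not given in the sources used here. Whole reads were recovered from the log2 values for 12235 of 12778 genes (95.8%; 99.7% of values whole within 0.02 reads) and used for CPM only. They matched the authors' deposited mean normalized signal within 5% for all 7510 genes compared. Because the values are log2 and not counts, limma 3.58.1 (R 4.3.3) replaced the planned edgeR test. Values of 13 samples in 6 groups were fitted together (7 residual degrees of freedom, empirical Bayes with a trend). Benjamini-Hochberg adjustment was over all 12778 genes. The 6 samples of the knockout iPSC groups were colony means. The others were single libraries of WT iPSC and of miR-290 KO and miR-302 KO embryonic stem cells. The shared spread thus rests in part on differences between libraries: the 6 knockout iPSC colonies alone left 3 degrees of freedom. The fit was tested on simulated data. Depth was 6433259 to 24980303 reads per library. 6 matrix columns that match no sample were not used. Seed matches were searched in the longest GENCODE M21 3′ UTR of each gene. Exact intervals are at 95%. Members and gene lists were chosen with earlier results of these data known. Named genes were the 8 largest called rises and falls without overlap between libraries, leaving out unnamed gene models, the 5 largest called differences between contexts in each direction, and members of the lists; Larp7 was added after its value was seen. Alternatives were other samples in the fit, left-out colonies and libraries, scaling, filters, pseudocounts, spread models and genes tested. Results for some list members are not reported here.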

Additional observations from a re-analysis of the deposited data

Results flagged for a closer look

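In a group of 4 libraries, a gene was listed here when its highest or lowest library lay far from the other 3 relative to the whole range (Dixon's criterion). Chance flags about 1 in 20 groups of continuous values, and 32 of 380 groups tested, over 188 of the genes named above and 2 measures of the libraries, were listed. That rate does not hold where only 1 library of a group has reads, which always gives a flag. Examples are Fmr1nb in double KO and Xist in miR-302 KO libraries. In 17 genes the library apart was the second one of miR-302 KO colony 1, whose share of reads in its 20 most abundant genes was also apart, at 17.1%. That library was the highest of its group for Arid3b at 143 CPM, Bcl2l11 at 23.7 CPM and Col4a2 at 21.5 CPM. It was the lowest for Ccnd3 at 254 CPM, Tdgf1 at 135 CPM, Tpm4 at 72.0 CPM, Zic2 at 47.1 CPM, Cdk2 at 14.03 CPM, Smad1 at 10.4 CPM, Amotl2 at 9.53 CPM and Bbc3 at 8.90 CPM. At low levels it was the lowest for Mycl at 2.34 CPM, Cdh2 at 1.17 CPM, Gsc, Lats2 and Slain1 at 0.270 CPM each, and Cdkn2c at 0 CPM. Without that library none of the called genes in this list lost its call, and Slain1, not called with it, was called.

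In miR-302 KO colony 2, library 2 was apart and high for Ly6a at 15.3 CPM, Xist at 9.31 CPM, Dusp4 at 0.343 CPM and Ly6c1 at 0.147 CPM, and library 1 for Tgfbr2 at 0.713 CPM and Kcnma1 at 0.102 CPM. Among double KO libraries, colony 1 library 2 was apart and low for Tcf3 at 82.5 CPM, Trp53 at 55.5 CPM and Ago2 at 18.6 CPM. Colony 2 library 1 was high for Lats1 at 35.5 CPM, Pou3f1 at 0.688 CPM and Fmr1nb at 0.0574 CPM, and colony 2 library 2 for Rhoc at 358 CPM and Thy1 at 0.601 CPM.

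The loss of miR-290 differed between the contexts with and without miR-302 in 3021 genes by the test of the difference itself (limma, adjusted p under 0.05). The log2 differences between contexts were -9.64 for Dnmt3l, -9.37 for Utf1, -9.31 for Rex2, -9.09 for Lefty2 and -8.90 for Dppa2. They were 10.90 for Sprr2a2, 8.72 for Kcnma1, 8.48 for Xist, 8.37 for Tenm2 and 8.31 for Igfbp3.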

How the results depend on the processing

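The 5987 calls of double KO minus miR-302 KO were recomputed under 30 settings, and the total stayed within 1.5-fold of that value in each. It was 4254 with the 4 colonies compared alone, 5040 with the 6 knockout iPSC colonies, 6902 with each library as 1 sample, 6594 with colony as a random effect, 4930 with estimated sample weights and 5965 under median-of-ratios scaling. With colonies left out in turn it ranged from 4465 to 5924, and with single libraries left out from 5303 to 6376. Colony numbers are shared between groups as names only: deviations of same-numbered colonies had a correlation of -0.01. With the colony number as a replicate block among the 6 knockout iPSC colonies 4167 genes were called (2543 higher, 1624 lower), and the difference between contexts could not be fitted there because the WT libraries carry no colony number. With a mean of at least 10 CPM 1350 genes were called lower against 2345; that setting tested 8276 genes. The 3021 calls of the difference between contexts ranged from 1834 to 3817 with colonies left out, from 1988 to 3597 with knockout libraries left out and from 2273 to 2580 with WT libraries left out; leaving out miR-290 KO colonies and WT libraries was added after seeing the data. The largest losses were those without miR-290 KO colony 2 (1834), miR-302 KO colony 1 (1942), double KO colony 1 (1959) and colony 1 library 1 of the miR-302 KO cells (1988). Across the 25 settings that tested all genes, 3174 genes were called in every one. For 188 of the genes named here calls were compared across settings, and 150 of these were called. None of the 188 changed sign with a call. Of the 150, 144 kept their call in every setting that tested them. The 6 that lost it in some setting were Ddx3y, Dkk1, Lef1, Sall2, Stat3 and Tjp1. The cause of these changes was not tested. With 2 colonies per group, only a large difference or a small spread could pass the test. Levels below 0.0469 CPM in double KO cells were beyond the depth, and intervals cover counting error only. No paired analysis beyond this block was possible because no label ties colonies across groups.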
